A study of Mus musculus with 8 samples.

Results

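Vascular endothelial growth factor (VEGF) signalling is described here through 8 genes of the mouse lung endothelium: the receptor genes Kdr (VEGF receptor 2) and Flt1 (VEGF receptor 1), the co-receptor genes Nrp1 and Nrp2 (neuropilins), and the ligand genes Vegfa, Vegfb, Vegfc and Pgf (placental growth factor). They were taken by symbol from the deposited tables, which hold 23238 distinct symbols, and each symbol had 1 row. Ribosome-bound RNA was measured in 8 libraries, 4 a group. The Sox17-deleted hypoxic mice carried Cdh5-CreERT2, Sox17fl/fl and RPL22tm1.1Psam and spent 3 weeks in hypoxia; the control mice carried Cdh5-CreERT2 and RPL22tm1.1Psam without the floxed Sox17 alleles and spent the same 3 weeks in room air. All mice were C57BL/6J, were injected at 8 weeks of age with 2 mg of tamoxifen daily over 5 days, and entered hypoxia or room air at 10 weeks. Cdh5-CreERT2 is a tamoxifen-inducible recombinase driven by the promoter of the endothelial cadherin gene, and the RPL22 allele puts a tag on ribosomes wherever the recombinase has acted, so that transcripts on endothelial ribosomes can be pulled down from whole lung. Genotype and oxygen changed together, so their effects cannot be told apart. The sources used here give neither the oxygen level, nor the sex of the mice, nor whether a library came from 1 animal or from several. The column names of Sox17-deleted hypoxic libraries 2, 3 and 4 share a stem, and a shared animal or preparation is neither stated nor denied, so p-values measure only the spread between these libraries.

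In textbook terms, VEGF-A binds KDR and FLT1 on endothelial cells. KDR is the receptor tyrosine kinase that carries most of the signal for survival, permeability and growth. FLT1 binds VEGF-A more tightly but signals weakly, and its soluble form, which ends before the membrane-spanning part, traps the ligand. VEGF-B and placental growth factor bind FLT1 but not KDR, and VEGF-C binds FLT4 (VEGF receptor 3) and, once processed, KDR. Neuropilins lack a kinase: NRP1 presents VEGF-A to KDR and NRP2 presents VEGF-C to FLT4, and both also bind class 3 semaphorins. In the lung, alveolar type 1 epithelial cells are a main source of VEGF-A, and the capillary endothelial cells called aerocytes are rich in Kdr. Oxygen shortage stabilises hypoxia-inducible factor (HIF), for which Vegfa and Flt1 are known target genes.

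The start sites of the 3 abundant members are shown first, as the DNA that a hypoxia or SOX factor would meet closest to each gene. The lines give the 250 bases before the RefSeq start (GRCm38.p6), 5′ to 3′ on the gene's own strand, for Kdr (chr5:75978456-75978705, minus strand), Flt1 (chr5:147726012-147726261, minus strand) and Nrp1 (chr8:128358823-128359072, plus strand). Capitals mark the HIF core letters, ACGTG or GCGTG, on either strand, where CACGC is GCGTG read on the opposite strand.
Kdr: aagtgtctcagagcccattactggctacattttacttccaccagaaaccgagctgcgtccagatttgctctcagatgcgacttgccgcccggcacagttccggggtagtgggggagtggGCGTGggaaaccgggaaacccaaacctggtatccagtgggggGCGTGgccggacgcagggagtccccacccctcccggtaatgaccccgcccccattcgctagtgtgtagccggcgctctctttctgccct
Flt1: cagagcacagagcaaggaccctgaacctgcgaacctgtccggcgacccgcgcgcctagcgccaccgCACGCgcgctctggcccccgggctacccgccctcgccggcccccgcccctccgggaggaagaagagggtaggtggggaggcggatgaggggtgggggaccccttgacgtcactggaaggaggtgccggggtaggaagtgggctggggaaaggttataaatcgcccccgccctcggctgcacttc
Nrp1: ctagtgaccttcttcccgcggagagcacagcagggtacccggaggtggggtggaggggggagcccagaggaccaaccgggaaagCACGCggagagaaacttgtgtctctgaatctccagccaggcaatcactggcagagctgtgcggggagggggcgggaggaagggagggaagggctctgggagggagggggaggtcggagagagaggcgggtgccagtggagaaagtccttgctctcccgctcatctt
The core began 131 and 89 bases before the start of Kdr, 184 bases before that of Flt1 and 166 bases before that of Nrp1. All 8 members had a RefSeq window, 10 in all since Vegfa and Pgf have more than 1 start. The RefSeq starts of Kdr and Nrp1 lie inside the genes as GENCODE M21 draws them. The HIF core was found in 7 of the 10 windows, of which 1 belonged to Vegfa and none to Vegfc. Of all 32851 mouse windows of the same length, 38.6% held it. The SOX core, ACAAT on either strand, was in 0 of the 10 windows and in 27.7% of all windows. These matches describe the letters in the windows and say nothing of what binds there.

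The libraries held between 7000313 and 12913304 counts, where levels are given as CPM (counts scaled to a library total of 1000000). Genes with at least 1 count numbered 8019 to 8708 in Sox17-deleted hypoxic libraries and 9821 to 10429 in controls. Those with at least 10 counts numbered 6075 to 7242 in Sox17-deleted hypoxic libraries and 8319 to 9303 in controls. Sox17-deleted hypoxic library 1 had the most counts of all libraries, yet 8616 genes with a count. Near-absent genes in that group stand beside this, and its cause was not tested. By counting error alone, a count of 0 allows up to 3 counts, which is 0.232 to 0.429 CPM by library. The spread between libraries is not covered by this bound. Sox17, the deleted gene, was at 11.1 ± 17.1 CPM in Sox17-deleted hypoxic libraries and 235 ± 39.2 CPM in control libraries (SD, n = 4), with no overlap. Its log2 fold change was −4.39 (SE 1.01, edgeR adjusted p = 0.346). The labels do not say if the loxP sites flank the sequenced 3′ end. All 16 pan-endothelial markers were detected in both groups, and they summed to 13258 ± 2209 and 16156 ± 531 CPM in Sox17-deleted hypoxic and control libraries (exact permutation p = 0.0286, the smallest that 4 against 4 allow; adjusted p = 0.0524 over 11 marker lists). With TMM-scaled library sizes that adjusted p was 0.224. The next 5 lists also had no overlap, each with the same p and adjusted p over library totals. General capillary markers summed to 8639 ± 1990 CPM in Sox17-deleted hypoxic libraries and 13486 ± 1087 CPM in controls. Alveolar type 2 markers were at 2862 ± 995 CPM in Sox17-deleted hypoxic libraries and 1166 ± 187 CPM in controls, and club and ciliated markers at 4257 ± 1387 CPM in Sox17-deleted hypoxic libraries and 1825 ± 444 CPM in controls. Fibroblast markers were at 3239 ± 3885 CPM in Sox17-deleted hypoxic libraries and 622 ± 109 CPM in controls. Library 4 of the Sox17-deleted hypoxic mice had 8950 CPM of them, of which 8208 CPM were Gsn, and the mean was 1335 ± 945 CPM without that library. Gsn had 469, 1384 and 657 CPM in Sox17-deleted hypoxic libraries 1 to 3, where the list summed to 826, 2426 and 755 CPM. In control libraries 1 to 4 Gsn had 243, 284, 481 and 280 CPM, of sums of 509, 723, 706 and 549 CPM. The lack of overlap of this list thus leans on Gsn, and the list without Gsn was not tested. Of 9 tested fibroblast markers, 6 had a fold change above 0 and 3 below. The macrophage and monocyte markers were at 363 ± 143 CPM in Sox17-deleted hypoxic libraries and 226 ± 25.0 CPM in controls. Mural cell markers summed to 288 ± 259 CPM in Sox17-deleted hypoxic libraries and 125 ± 38.5 CPM in controls, with overlap, and to 181 ± 178 CPM without Sox17-deleted hypoxic library 4. Of the defining fibroblast and macrophage markers, Pdgfrl and Adgre1 were at 0 in all 8 libraries. Tcf21, Meox2, Itgam and Fcgr1 were at 0 in every Sox17-deleted hypoxic library, and Siglecf and Ccr2 in every control. A lower level in such a pulldown can mean fewer cells of a type, less RNA in each, or a larger share of RNA from other cells. These cannot be told apart. The part of these lists in the results on VEGF genes was not tested.

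Of the 8 members, 7 passed the expression filter and none passed the test. The edgeR quasi-likelihood test called 0 of the 7 at an adjusted p of 0.05, where it called 0% of all 8282 tested genes. None of the 7 had an unadjusted p under 0.05, against 5.12% of all tested genes. DESeq2, which gave no adjusted p for Vegfb, called 0 of the other 6, against 1.94% of genes, and limma-voom called 0 of the 7, against 0.169%. The groups overlapped for all 8 members, where 6.59% of tested genes had no overlap in either direction. Fitted log2 fold changes, Sox17-deleted hypoxia minus control, were above 0 for 4 members and below 0 for 3, with a median of 0.27 against −0.0088 over all tested genes. All 7 had an edgeR adjusted p of 1.00.

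**Figure D1:**
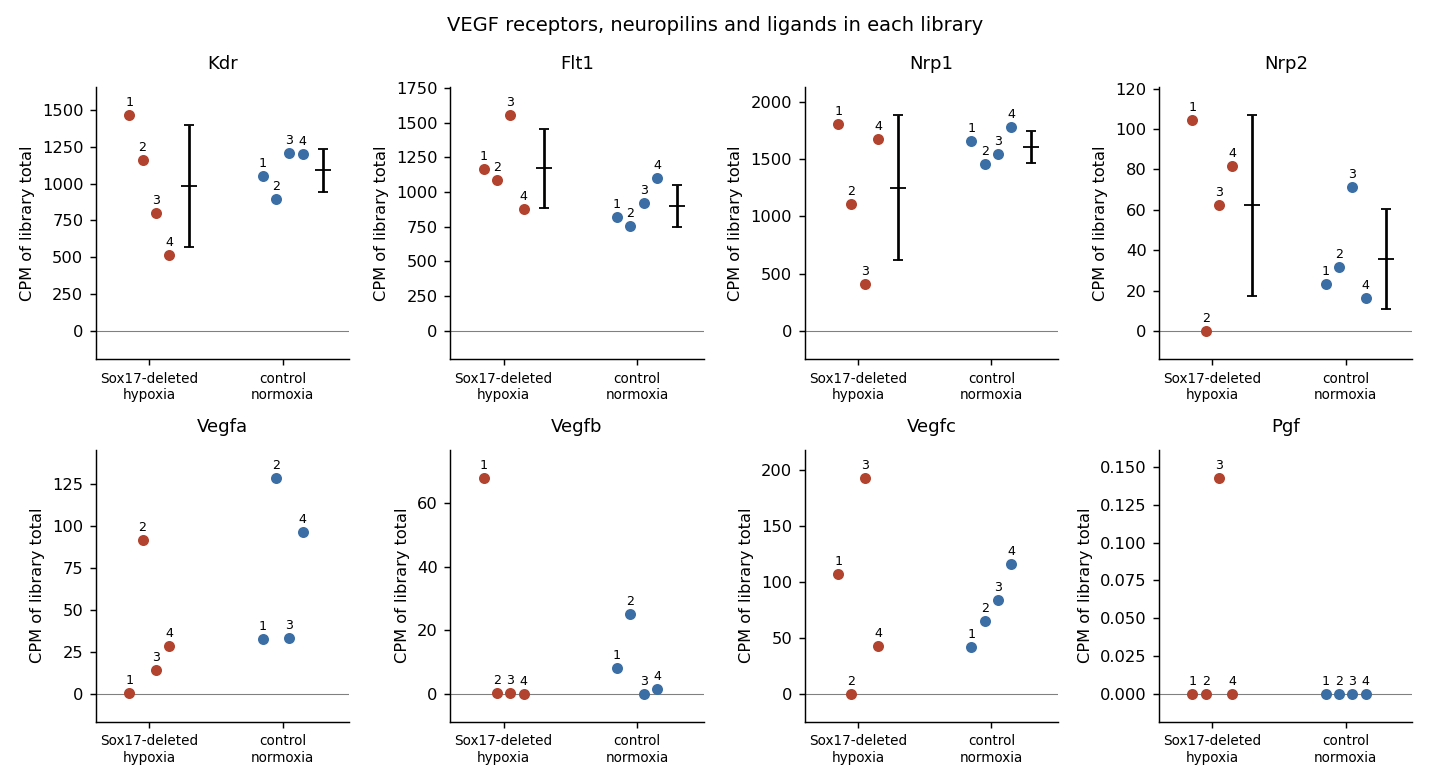
CPM of library total for the 8 members; each point is a library with its replicate number, and bars show the mean ± SD for the 4 genes at the top. Kdr and Nrp1 spread further among Sox17-deleted hypoxic libraries (red, left) than among controls (blue, right), and each ligand gene in the lower row has at least 1 Sox17-deleted hypoxic library with 2 counts or fewer.

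Kdr (chromosome 5, 75932827 to 75978458, minus strand, GRCm38) carries the main signalling receptor. It had 1465, 1161, 798 and 515 CPM in Sox17-deleted hypoxic libraries 1 to 4, against 1051, 894, 1206 and 1203 CPM in control libraries 1 to 4. Sox17-deleted hypoxic library 1 lay above all controls, libraries 3 and 4 lay below all controls, and library 2 lay among them. The means were 985 ± 415 and 1089 ± 148 CPM in Sox17-deleted hypoxic and control libraries (SD, n = 4), and the log2 fold change was −0.12 (SE 0.34, 95% interval −0.85 to 0.61). Its direction turned without Sox17-deleted hypoxic library 4 (0.10) and with scaling to pan-endothelial markers (0.11). The summed aerocyte markers were 8356, 6031, 2730 and 4861 CPM in Sox17-deleted hypoxic libraries 1 to 4, and between 6165 and 8190 CPM in controls (exact permutation p = 0.229, adjusted p = 0.314). Libraries 3 and 4 were thus the lowest of the 8 for Kdr and for these markers alike, and the part of aerocytes in the level of Kdr was not tested.

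Flt1 (chromosome 5, 147561604 to 147726011, minus strand), the decoy-like receptor, had 1163, 1085, 1554 and 878 CPM in Sox17-deleted hypoxic libraries, against 820, 753, 920 and 1100 CPM in controls. Libraries 1 and 3 of the Sox17-deleted hypoxic mice exceeded every control, while libraries 2 and 4 lay among the controls. The means were 1170 ± 283 CPM in Sox17-deleted hypoxic libraries and 898 ± 151 CPM in controls, with a log2 fold change of 0.42 (SE 0.31, 95% interval −0.24 to 1.08), which was 0.19 without Sox17-deleted hypoxic library 3. With an unadjusted edgeR p of 0.191, this was the lowest p of the 7 tested members. GENCODE M21 gives Flt1 coding transcripts with different 3′ ends, a longer one that runs to 147561604 and a shorter one that stops at 147635159, inside the gene. A 3′ tag could set these apart by position, but the deposited tables give a count per symbol, so full-length and shorter forms of Flt1 are not separated here.

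The ratio of Kdr to Flt1 counts within a library does not depend on scaling. It was 1.26, 1.07, 0.513 and 0.586 in Sox17-deleted hypoxic libraries 1 to 4, against 1.28, 1.19, 1.31 and 1.09 in control libraries. Kdr exceeded Flt1 in Sox17-deleted hypoxic libraries 1 and 2 and in all 4 controls, and was below it in Sox17-deleted hypoxic libraries 3 and 4. In 3 of the 4 Sox17-deleted hypoxic libraries the ratio lay below every control, and the groups overlapped through library 1. These are libraries 2, 3 and 4, whose column names share a stem, so they may not be separate units. Library 2, at 1.07, lay just below the lowest control, at 1.09. The share of other gene pairs with such a ratio is not given here. The mean ratio was 0.857 ± 0.364 in Sox17-deleted hypoxic libraries and 1.22 ± 0.0988 in controls (SD, n = 4).

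Because the summed pan-endothelial markers were lower in Sox17-deleted hypoxic libraries, the 3 abundant members were also set against that sum. This measure was chosen after the values were seen and is given without a test. Of the 16 markers, 6 had a fold change above 0 and 10 below, none called. The most abundant, Ramp2, was at 3215 ± 806 CPM in Sox17-deleted hypoxic libraries and 4384 ± 320 CPM in controls. Per 1000 counts of the 16 markers in the same library, Flt1 had 80.0, 79.8, 105 and 87.4 counts in Sox17-deleted hypoxic libraries and 51.0, 48.1, 57.5 and 65.1 in controls, with no overlap. On this scale 2.97% of all tested genes were higher in every Sox17-deleted hypoxic library than in any control. Kdr had 72.8 ± 24.2 counts per 1000 in Sox17-deleted hypoxic libraries and 67.3 ± 7.93 in controls, and Nrp1 had 100.1 ± 59.5 in Sox17-deleted hypoxic libraries and 99.6 ± 5.61 in controls, both with overlap. Fitted with library sizes set by these markers, Flt1 had a log2 fold change of 0.67 with an edgeR adjusted p of 0.646 (0.622 to 1.00 over 19 alternatives), on a scale that moved the median of all genes up by 0.32.

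**Figure D2:**
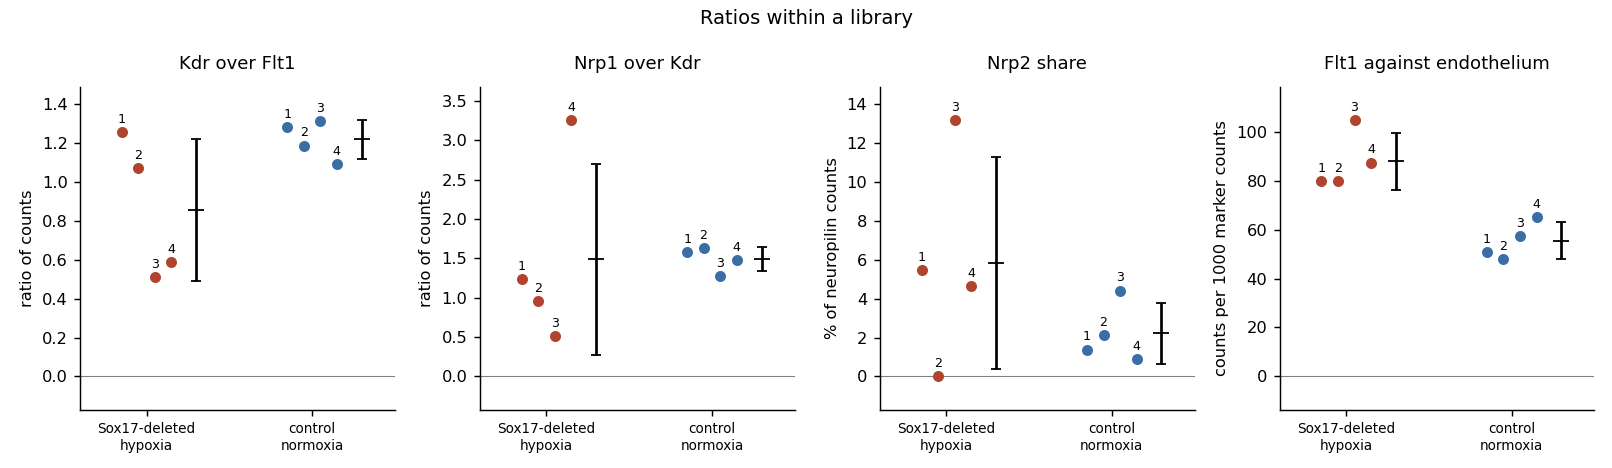
Ratios of counts within each library; points carry the replicate number, bars show the mean ± SD, and Sox17-deleted hypoxia (red) stands left of control normoxia (blue). Kdr over Flt1 is 0.513 and 0.586 in Sox17-deleted hypoxic libraries 3 and 4, and Flt1 per 1000 pan-endothelial marker counts does not overlap between the groups.

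Nrp1 (chromosome 8, 128358604 to 128503363, plus strand), the co-receptor that presents VEGF-A, had 1807, 1110, 413 and 1675 CPM in Sox17-deleted hypoxic libraries, against 1661, 1460, 1543 and 1778 CPM in controls. Libraries 2 and 3 of the Sox17-deleted hypoxic mice lay below every control, library 1 was slightly above all of them, and library 4 lay among them. The log2 fold change was −0.37 (SE 0.38, 95% interval −1.19 to 0.44), and scaled to pan-endothelial markers it was 0.0081. Leaving out Sox17-deleted hypoxic library 3 gave −0.098, and leaving out library 1 gave −0.61. The low value of library 3 rests on 2890 counts. The coefficient of variation of Nrp1 was 50.8% in Sox17-deleted hypoxic libraries, where counting alone gives 0.850%, and 8.62% in controls, where counting gives 0.741%. Over genes of like level, the median coefficient of variation of the 275 tested genes with a mean of 500 to 2000 CPM was 39.3% in Sox17-deleted hypoxic libraries and 17.0% in controls. For Kdr it was 42.2% in Sox17-deleted hypoxic libraries and 13.6% in controls, and for Flt1 24.2% in Sox17-deleted hypoxic libraries and 16.8% in controls. Set against Kdr, Nrp1 counts gave ratios of 1.23, 0.956, 0.517 and 3.25 in Sox17-deleted hypoxic libraries and 1.58, 1.63, 1.28 and 1.48 in controls, so that Sox17-deleted hypoxic libraries 1 to 3 lay below every control and library 4 above every control.

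Nrp2 (chromosome 1, 62703285 to 62818695, plus strand), the co-receptor of VEGF-C, had 104, 0, 62.6 and 81.6 CPM in Sox17-deleted hypoxic libraries, against 23.3, 31.6, 71.2 and 16.3 CPM in controls. Libraries 1 and 4 of the Sox17-deleted hypoxic mice lay above every control, library 3 lay among the controls, and library 2 had no count, which allows up to 0.318 CPM. The log2 fold change was 0.86 (SE 1.46, 95% interval −2.28 to 4.00), and −1.16 with limma-voom. It was 0.54 without Sox17-deleted hypoxic library 1, 1.29 without library 2 and 1.40 without control library 3. Its annotated gene overlaps Gm29083 on the opposite strand and Gm37121 on the same strand, and the sources used here do not say if reads were counted by strand. Nrp2 made up 5.45%, 0%, 13.2% and 4.65% of neuropilin counts in Sox17-deleted hypoxic libraries and 1.38%, 2.12%, 4.41% and 0.910% in controls. The 13.2% of library 3 (exact binomial interval 12.0% to 14.4%, counting error only) comes with the low Nrp1 of that library, and the 0% of library 2 allows a share of up to 0.0286%. Markers of lymphatic endothelium, where Nrp2 is known to be transcribed, summed to 2041 ± 866 CPM in Sox17-deleted hypoxic libraries and 1999.9 ± 232 CPM in controls (exact permutation p = 1.00), with Prox1 at 0 in all controls. Of 5 tested markers of that list, 3 had a fold change above 0 and 2 below, with a median of 0.75. The most abundant of them was Lyve1. It had 2614, 437, 341 and 573 CPM in Sox17-deleted hypoxic libraries, against 1549, 1520, 906 and 1627 CPM in controls. Flt4 also belongs to that list.

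The ligand genes were far less abundant than the receptors on this 3′-tag scale, which needs no division by transcript length: all 4 together held between 2.21% and 6.84% of the counts of the 8 members in Sox17-deleted hypoxic libraries, and between 2.27% and 6.51% in controls. Vegfa (chromosome 17, 46016993 to 46032369, minus strand) had 0.155, 91.9, 14.0 and 28.4 CPM in Sox17-deleted hypoxic libraries, against 32.8, 129, 33.1 and 96.6 CPM in controls. Libraries 1, 3 and 4 of the Sox17-deleted hypoxic mice were below every control, and the groups overlapped through library 2. The log2 fold change was −1.16 (SE 1.33, 95% interval −4.02 to 1.69), and it lay below 0 under all 18 alternatives run, between −2.66 and −0.72. It was −2.30 without Sox17-deleted hypoxic library 2, −0.75 without library 1 and −0.72 without control library 2. Alveolar type 1 markers summed to 1420 ± 224 CPM in Sox17-deleted hypoxic libraries and 1450 ± 117 CPM in controls (exact permutation p = 0.800); 8 of 9 tested markers had a fold change above 0 (median 0.49), Col4a3 was at 0 in every Sox17-deleted hypoxic library, and the most abundant of them, Clic5, had 459 ± 182 CPM in Sox17-deleted hypoxic libraries and 802 ± 117 CPM in controls. Sox17-deleted hypoxic library 1, with 2 Vegfa counts, had a marker sum of 1243 CPM, and library 2, with 868 Vegfa counts, one of 1736 CPM. Libraries 3 and 4, with 98 and 317 Vegfa counts, ran the other way, with marker sums of 1421 and 1279 CPM. The part of alveolar type 1 cells in the level of Vegfa was not tested.

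Vegfc (chromosome 8, 54077606 to 54187096, plus strand), the lymphatic growth factor, had 107, 0.106, 193 and 42.8 CPM in Sox17-deleted hypoxic libraries, against 41.9, 64.8, 83.9 and 116 CPM in controls. Libraries 3 and 2 of the Sox17-deleted hypoxic mice were the highest and lowest of all 8. The log2 fold change of 0.27 (SE 1.17, 95% interval −2.25 to 2.78) was −0.60 without library 3 and −2.18 with limma-voom. Vegfb (chromosome 19, 6982473 to 6987651, minus strand), a ligand of FLT1, had 878, 3, 1 and 0 counts in Sox17-deleted hypoxic libraries, against 84, 277, 0 and 17 counts in controls. These were 68.0, 0.318, 0.143 and 0 CPM in Sox17-deleted hypoxic libraries, against 7.95, 25.0, 0 and 1.43 CPM in controls. Nearly all Vegfb counts of the Sox17-deleted hypoxic group came from library 1: the log2 fold change of 0.99 (SE 2.58) was −5.73 without it and −1.53 with limma-voom. Vegfb is abundant in heart muscle; cardiomyocyte markers summed to 197 ± 141 CPM in Sox17-deleted hypoxic libraries and 37.3 ± 22.4 CPM in controls (exact permutation p = 0.0857), with Nppa and Pln at 0 in all 8 libraries and Myh6, the most abundant of them, at 0 CPM in Sox17-deleted hypoxic library 1. Pgf, the placental growth factor gene, had 1 count in Sox17-deleted hypoxic library 3 and none in the other libraries, so its level was not detectable at this depth in either group.

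The make-up of the ligand counts differed from library to library. Vegfa held 0.0885%, 99.5%, 6.74% and 39.9% of them in Sox17-deleted hypoxic libraries, and 39.7%, 58.9%, 28.3% and 45.1% in controls. The exact binomial intervals, which cover counting error only, were 0.0107% to 0.319% for library 1 and 98.8% to 99.9% for library 2. Values of 0 or 1 count were also found among other genes at the level of Vegfa and Vegfc. Among tested genes whose mean in the other 7 libraries was 20 to 150 CPM, 18.5% of values in Sox17-deleted hypoxic libraries and 5.02% in control libraries were 0 or 1 count. Vegfb and Pgf, with means of 12.9 and 0.0179 CPM over all libraries, lie below that range. The lowest Vegfa value, 2 counts, is not among the values counted. Among genes at 500 to 2000 CPM, the range of Kdr, Flt1 and Nrp1, 0% of values were that low in either group.

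**Figure D3:**
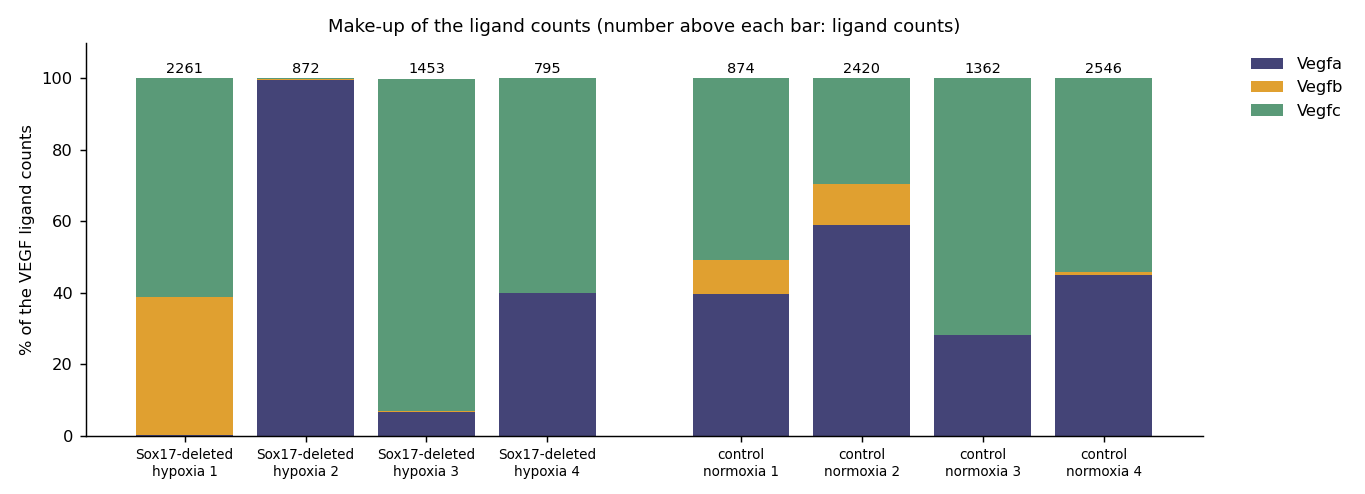
Percent of the VEGF ligand counts that belong to Vegfa, Vegfb and Vegfc in each library, with the number of ligand counts above each bar; the single Pgf count is too small to see. Sox17-deleted hypoxic library 1 has almost no Vegfa and library 2 almost only Vegfa, while Vegfa holds between 28.3% and 58.9% in the controls.

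**Figure D4:**
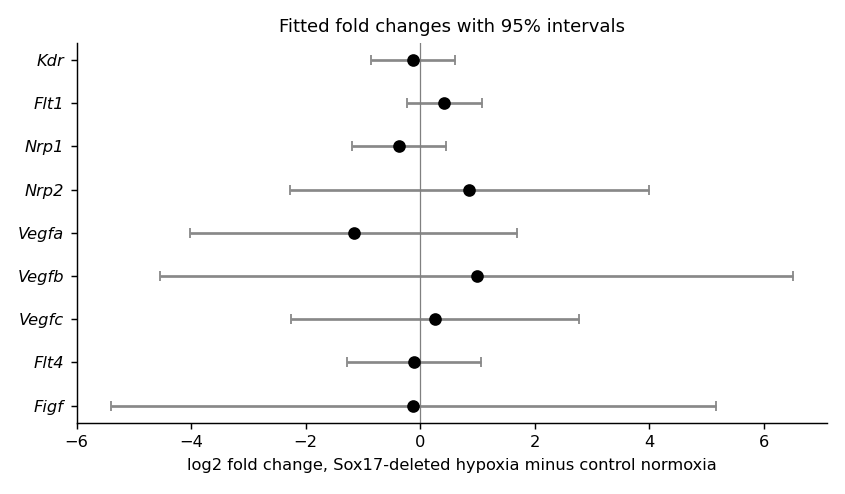
Fitted log2 fold changes (points) with 95% intervals (bars) for the 7 tested members and for Flt4 and Figf, from the edgeR fit over all genes. Every interval includes 0, and those of Kdr, Flt1 and Nrp1 are the narrowest of the 7 members.

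The remaining receptor and ligand genes of the VEGF system, Flt4 and Figf, overlapped between the groups too. Flt4, the VEGF-C receptor gene, had 128.2, 119, 330 and 92.0 CPM in Sox17-deleted hypoxic libraries and 124, 224, 302 and 112 CPM in controls (log2 fold change −0.11, SE 0.55). The gene for VEGF-D, listed as Figf, had 0, 72, 0 and 722 counts in Sox17-deleted hypoxic libraries and 0, 500, 236 and 123 counts in controls. Neither passed the test, each with an edgeR adjusted p of 1.00.

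The genes whose profile over the 8 libraries lay closest to a member were found by the root mean square difference of centred log2(CPM + 1), in a pool of 1552 abundant genes. For Kdr these were Gpihbp1 (0.18), which anchors lipoprotein lipase to capillary walls and is among the general capillary markers, Por (0.20), which encodes cytochrome P450 reductase, and Grina (0.21), against a median of 0.78 over the pool. Tsc22d1 (0.17), the actin gene Actb (0.21) and Lrrc58 (0.21) were closest to Flt1, where the pool had a median of 0.70. Nearest to Nrp1 were Fermt2 (0.26), which encodes the integrin activator kindlin-2, the zinc finger gene Casz1 (0.26) and Morf4l1 (0.26), with a pool median of 0.90. For Vegfa, Pon2 stood at 0.73, Rnf144a at 0.86 and Kdm2a at 1.07, with a pool median of 2.15. The difference grows with a gene's own spread, whose root mean square was 0.44 for Kdr, 0.31 for Flt1, 0.67 for Nrp1 and 2.04 for Vegfa, so distances are not compared between members. The libraries share their depth and cell make-up across all genes, so the likeness is a description only.

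Among 14 tested genes whose products bind or regulate the receptors at the membrane, 6 had a fold change above 0 and 8 below, none called, with a median of −0.10. Ptprb encodes the endothelial phosphatase VE-PTP, which acts on KDR and TIE2. It had 1079, 665, 674 and 495 CPM in Sox17-deleted hypoxic libraries and 1484, 1019, 1386 and 1623 CPM in controls (log2 fold change −0.89, SE 0.32, edgeR adjusted p = 0.598). Efnb2, whose product ephrin-B2 is needed for uptake of the receptors into the cell, was at 63.1 ± 24.1 CPM in Sox17-deleted hypoxic libraries and 211 ± 97.0 CPM in controls (log2 fold change −1.71, SE 0.57, edgeR adjusted p = 0.465). Its groups did not overlap, and 4.96% of tested genes were lower in that way. Cdh5, the gene of VE-cadherin, was at 523 ± 80.5 CPM in Sox17-deleted hypoxic libraries and 755 ± 119 CPM in controls (log2 fold change −0.50, SE 0.30, edgeR adjusted p = 1.00). Ptprb and Cdh5 are also among the pan-endothelial markers.

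Of 42 tested genes of the cascade below the receptors, 17 had a fold change above 0 and 25 below, with a median of −0.21 and none called. Iqgap1, a scaffold that binds KDR, was at 620 ± 252 CPM in Sox17-deleted hypoxic libraries and 252 ± 39.8 CPM in controls (log2 fold change 1.33, SE 0.39, edgeR adjusted p = 0.346). Ppp3cb, a calcineurin subunit gene, had 1, 0, 2 and 1 counts in Sox17-deleted hypoxic libraries and 145, 152, 345 and 57 in controls (edgeR adjusted p = 0.527). Map2k1, which encodes the kinase MEK1, had 0, 0, 5 and 0 counts in Sox17-deleted hypoxic libraries and 25, 452, 156 and 401 in controls (edgeR adjusted p = 0.804). Neither Ppp3cb nor Map2k1 overlapped between the groups, where 4.96% of tested genes were lower in that way. Both passed the expression filter through the control libraries alone, so their lack of overlap is not read as a result.

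Genes known from cultured endothelium to be induced by VEGF showed 7 fold changes above 0 and 13 below among 20 tested, with a median of −0.34 and none called. Esm1, which encodes endocan, a proteoglycan of endothelial tip cells, had 2, 0, 1 and 0 counts in Sox17-deleted hypoxic libraries and 577, 126, 431 and 946 in controls (edgeR adjusted p = 0.346). Of 4841 genes with at least 100 counts in each control, 49 (1.01%) had at most 10 in each Sox17-deleted hypoxic library, as Esm1 did. In the opposite direction the same limits held for 1 of 2878 genes. Icam1, the leukocyte adhesion gene, was at 140 ± 147 and 383 ± 173 CPM in Sox17-deleted hypoxic and control libraries (log2 fold change −1.43, SE 0.63, edgeR adjusted p = 0.890), and Spry4, an inhibitor of receptor kinase signalling, had 24, 0, 0 and 0 counts in Sox17-deleted hypoxic libraries and 437, 536, 61 and 26 in controls (edgeR adjusted p = 1.00). The groups did not overlap for Esm1 or Spry4, where 4.96% of tested genes were lower in that way. Esm1 passed the expression filter through the control libraries alone.

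HIF target genes other than the members had 14 fold changes above 0 and 8 below among 22 tested, with a median of 0.51 and none called. Of the 30 listed, 7 were at 0 in every Sox17-deleted hypoxic library and 3 at 0 in every control, and none of these was tested. Adm, Ankrd37, Pfkfb4 and Stc2 were at 0 in the Sox17-deleted hypoxic group alone. The whole list summed to 2939 ± 467 CPM in Sox17-deleted hypoxic libraries and 3717 ± 601 CPM in controls, with overlap. The lower sum rests on Hilpda, whose group means, given below, lay further apart than those of the whole list. The glycolytic gene Aldoa was at 684 ± 244 CPM in Sox17-deleted hypoxic libraries and 383 ± 91.3 CPM in controls (log2 fold change 0.87, SE 0.35, edgeR adjusted p = 0.800). Bnip3, a mitophagy receptor gene, was at 294 ± 91.9 CPM in Sox17-deleted hypoxic libraries and 73.0 ± 42.9 CPM in controls (log2 fold change 2.05, SE 0.52, edgeR adjusted p = 0.346). Hilpda, which encodes an inhibitor of lipolysis, was at 422 ± 160 CPM in Sox17-deleted hypoxic libraries and 1828 ± 286 CPM in controls (log2 fold change −2.08, SE 0.36, edgeR adjusted p = 0.119). Hilpda is also among the general capillary markers. For neither gene did the groups overlap, where 1.63% of tested genes were higher and 4.96% lower in every Sox17-deleted hypoxic library. All 4 lists were chosen with earlier results of these data known.

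**Figure D5:**
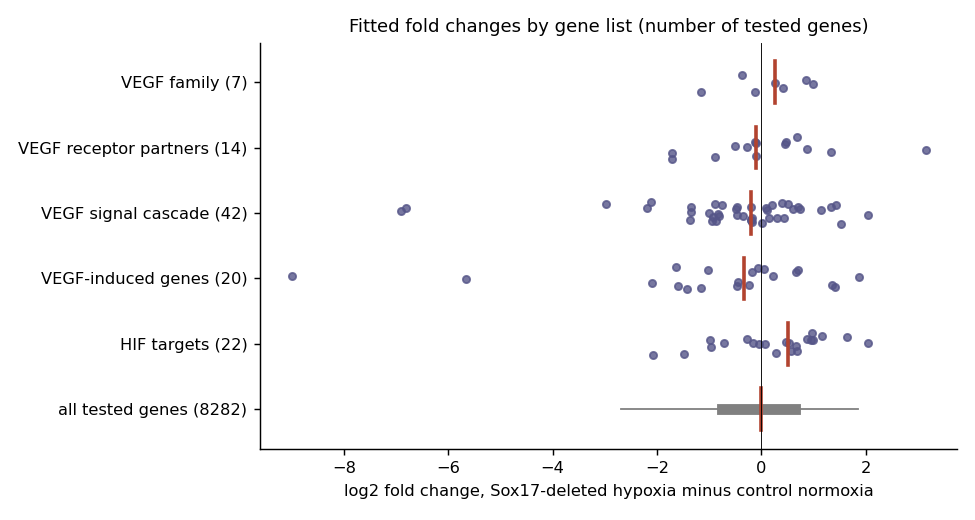
Fitted log2 fold changes of the tested genes in each list (points, with the number tested) and the list's median (red line); the grey bar spans the middle 50% and the thin line the middle 90% of all tested genes. The medians lie between −0.34 and 0.51, inside the middle range of all genes; points below −5 belong to genes with hardly any counts in Sox17-deleted hypoxic libraries, where the fitted size is not a measured bound.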

How the data were processed

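The deposited files hold raw counts per gene symbol, 1 file a library, with no normalization by the authors. Per the labels' protocols, transcripts on HA-tagged ribosomes were captured from lung and sequenced from their 3′ ends with a QuantSeq kit, which yields roughly 1 fragment a transcript, so levels need no division by length. Bowtie2, bedtools and mm10 are named in the submitters' processing notes; versions, multi-mapping and strand settings are not given in the sources used here.

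The 44 duplicate rows were summed, which touched no member. Levels are CPM, counts scaled to a library total of 1000000. All 8282 genes past filterByExpr were tested in R 4.3.3 with edgeR 4.0.16 (TMM factors, group alone, quasi-likelihood F test, Benjamini-Hochberg adjustment, threshold 0.05). The SE is the fold change divided by the square root of F. DESeq2 1.42.0, limma 3.58.1, other scalings and filters, a replicate block and leaving out each library were alternatives. The code was tested on simulated data. Marker sums were tested over libraries by exact permutation (two-sided), adjusted over 11 lists. Chi-square per degree of freedom was at least 188 for every pair of libraries, so no library was the same counts deposited again; this does not show that libraries came from different animals. Nrp1 over Nrp2 is given as the Nrp2 share, since a library had 0 Nrp2 counts. Intervals and floors cover counting error only.

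Named besides the members were Sox17, Flt4, Figf, the 3 genes of lowest p in each pathway list, the most abundant gene of each marker list (printed where a value turns on it), and the 3 genes of closest profile. The members and lists were chosen with earlier results of these data known. Titles number the libraries 1 to 4 in both groups; deviations from the group means of same-numbered libraries correlated between −0.027 and 0.021 over genes, so they were not treated as pairs. Positions are from GENCODE M21 on GRCm38, the assembly also called mm10.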

Additional observations from a re-analysis of the deposited data

Results flagged for a closer look

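In 6 of 50 groups of 4 values checked, a library stood apart from the others by Dixon's criterion. The criterion is set to flag about 1 in 20 groups of independent, normally spread values. Counts near 0, as for Pgf, Vegfb and Figf, are not of that kind, so no excess is read from the number of flags. Vegfb was at 68.0 CPM in Sox17-deleted hypoxic library 1, against 0 to 0.318 CPM in libraries 2 to 4. Pgf was at 0.143 CPM in Sox17-deleted hypoxic library 3, which is 1 count, and at 0 in the rest of its group. Sox17 itself was at 36.6 CPM in Sox17-deleted hypoxic library 1, against 0.857 to 3.67 CPM in libraries 2 to 4. Flt4 was at 330 CPM in Sox17-deleted hypoxic library 3, against 92.0 to 128.2 CPM in the others. Figf was at 64.7 CPM in Sox17-deleted hypoxic library 4, against 0 to 7.62 CPM in the others. Macrophage and monocyte markers summed to 189 CPM in control library 3, against 234 to 242 CPM in the other controls.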

How the results depend on the processing

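No member was called under any of the 19 alternatives run, with edgeR, DESeq2 or limma adjusted p values between 0.589 and 1.00. Over all genes, the count of 0 became 17 with no low-count filter, 4 when only the 1641 most abundant genes were tested, 155 with DESeq2, 14 with limma-voom, 1 with robust estimation, 1 with the 3 libraries of shared column stem summed, 2 when scaled to pan-endothelial markers, and 0 to 5 with a library left out (5 without Sox17-deleted hypoxic library 1). The cause was not tested. The summed and the marker-scaled settings were chosen after seeing the data. Flt1 stayed above 0 and Vegfa below 0 in all alternatives. Kdr turned to 0.088 with the libraries summed and 0.11 when scaled to pan-endothelial markers, and ran from −0.37 to 0.10 with a library left out; Nrp1 turned to 0.0081 when scaled to those markers. With limma-voom, which moved the median of all genes by −0.69, Nrp2 was −1.16, Vegfb −1.53 and Vegfc −2.18. With the replicate number as a block, which moved that median by −0.56, Nrp2 was 0.39, Vegfa −2.11, Vegfb −1.62 and Vegfc −0.72, and 0 genes were called. With a library left out, Flt1 ran from 0.19 to 0.56, Nrp1 from −0.61 to −0.098, Nrp2 from 0.54 to 1.40, Vegfa from −2.30 to −0.72, Vegfb from −5.73 to 2.44 and Vegfc from −0.60 to 0.73. A ligand value of 0 to 3 counts in a library cannot be set apart from 0; why some libraries had so few was not tested.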
